A study of Homo sapiens with 54 samples.

Results

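The MHC class I antigen presentation genes described here are 9 genes taken by name, *HLA-B*, *HLA-C*, *HLA-E*, *HLA-F*, *B2M*, *TAP1*, *TAP2*, *TAPBP* and *NLRC5*. All 9 were found among the 55906 rows of each of 4 tables of transcript abundance, and all 9 had at least 1 TPM in at least 4 libraries in each cell line, the minimum for testing. TPM is a transcript's share of a library, corrected for transcript length. The 54 RNA-sequencing libraries formed 18 groups of 3 replicates. In A549 and NCI-H23, both lung cancer cell lines with stable Zim3-dCas9, a nuclease-dead Cas9 fused to a repressor domain that silences the promoter a guide points to (CRISPRi), cells were collected on day 5 with guides to safe harbor loci (Control KD), to 1 paralog (*TRA2A* KD or *TRA2B* KD) or to both (*TRA2A/B* DKD). In LN229 and LN319, both glioma cell lines that received Cas9 and guides by lentivirus, collection was on day 7. The luciferase (Luc) cells had Control, *TRA2A* or *TRA2B* KO, and the cells overexpressing *TRA2B* (TRA2B-OE) had Control or *TRA2A* KO. The dCas9 cells were sorted populations and Cas9 leaves a mixture of alleles in each culture, so a level is an average over cells in which fewer expressing cells and less RNA per cell cannot be told apart. Nothing in the labels says that replicates were separate cultures, so p measures the spread between these libraries, which may be technical.

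TRA2A and TRA2B are paralogous splicing activators of the SR family, and the study compared loss of each alone with loss of both. Class I molecules show peptides from inside the cell to CD8 T cells. *HLA-B* and *HLA-C* encode classical heavy chains, which are highly variable between people. *HLA-E* and *HLA-F* encode non-classical ones, and HLA-E presents peptides from the leader sequences of other class I chains to receptors of natural killer cells. Each heavy chain pairs with beta-2 microglobulin (*B2M*), receives peptides that the transporter TAP1-TAP2 pumps into the endoplasmic reticulum, and is held at the transporter by tapasin (*TAPBP*). The peptides come from the proteasome, in part from its immunoproteasome form. Transcription of most of these genes is driven by NLRC5, which acts with RFX, NFY and CREB/ATF factors at their promoters, and is raised by interferon and NF-kB.

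In GRCh38 (Gencode v44), 7 of the 9 genes lie in the MHC region of chromosome 6. *HLA-F* spans 29722775 to 29738528, *HLA-E* 30489509 to 30494194, *HLA-C* 31268749 to 31272130 and *HLA-B* 31353872 to 31367067. The processing genes follow, with *TAP2* at 32821833 to 32838739, *TAP1* at 32845209 to 32853816 and *TAPBP* at 33299694 to 33314284. *B2M* is on chromosome 15 (44711358 to 44718851) and *NLRC5* on chromosome 16 (56989485 to 57083531). *HLA-F*, *TAP1* and *TAPBP* share exonic bases with a gene on the other strand (for *TAP1*, PSMB8-AS1), *HLA-B* with 4 annotated genes and *TAP2* with a readthrough gene. Strand use in the quantification is not given in the sources used here, so a level in these genes may include such reads, and reads of *HLA-B* and *HLA-C* may be split between these near-identical copies.

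RefSeq promoter windows (GRCh38.p14, 250 bases before to 50 after the start of the gene) were given for 7 of the 9 members. *HLA-E* and *NLRC5* are named only. Each of the 7 members had a window with a repeat of the kind bound by interferon regulatory factors, searched on both strands as GAAANNGAAA or GAANNGAAA. Of all 35116 windows, 10.6% held either. The second form was searched as a repeat of class I genes. *HLA-B* and *HLA-C* matched that form only, so their matches are not independent of the choice of pattern. *TAP1* had a further window (chr6:32852712-32853011, minus strand), which held neither repeat. Counts below are of members with a match in any of their windows. The first form was in *HLA-F*, *B2M*, *TAP1*, *TAP2* and *TAPBP* (5 members, against 3.57% of all windows), and the second in *HLA-B*, *HLA-C* and *TAP2* (3 members, against 7.66%). In *TAP2* the matches overlap. A CCAAT box, the site of NFY, was in a window of 5 of the 7 members and in 34.6% of all windows. Shown are *TAP1*, whose change was the largest of those past the test, *HLA-B* and *HLA-C*, which fell side by side in 2 comparisons, and *B2M*. Capitals mark the matches to either repeat, read 5′ to 3′ on the strand of the gene. The *TAP1* window shown is chr6:32853655-32853954 (minus strand), *HLA-B* chr6:31357130-31357429 (minus), *HLA-C* chr6:31272043-31272342 (minus) and *B2M* chr15:44711267-44711566 (plus).
TAP1: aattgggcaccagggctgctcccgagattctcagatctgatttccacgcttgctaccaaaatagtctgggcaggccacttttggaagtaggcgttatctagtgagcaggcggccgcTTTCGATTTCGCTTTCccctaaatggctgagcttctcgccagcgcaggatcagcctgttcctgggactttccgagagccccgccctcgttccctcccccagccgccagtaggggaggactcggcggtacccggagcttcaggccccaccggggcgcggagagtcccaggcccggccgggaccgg
HLA-B: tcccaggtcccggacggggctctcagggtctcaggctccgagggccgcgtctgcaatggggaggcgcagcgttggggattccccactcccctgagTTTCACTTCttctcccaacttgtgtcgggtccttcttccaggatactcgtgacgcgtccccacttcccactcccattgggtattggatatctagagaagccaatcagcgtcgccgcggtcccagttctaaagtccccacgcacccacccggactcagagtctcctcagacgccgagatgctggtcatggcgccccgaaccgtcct
HLA-C: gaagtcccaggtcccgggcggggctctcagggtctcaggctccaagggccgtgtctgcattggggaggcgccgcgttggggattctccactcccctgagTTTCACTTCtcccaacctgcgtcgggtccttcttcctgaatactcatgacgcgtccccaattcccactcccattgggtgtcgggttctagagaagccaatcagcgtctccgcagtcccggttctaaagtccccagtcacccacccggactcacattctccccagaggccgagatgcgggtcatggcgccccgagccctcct
B2M: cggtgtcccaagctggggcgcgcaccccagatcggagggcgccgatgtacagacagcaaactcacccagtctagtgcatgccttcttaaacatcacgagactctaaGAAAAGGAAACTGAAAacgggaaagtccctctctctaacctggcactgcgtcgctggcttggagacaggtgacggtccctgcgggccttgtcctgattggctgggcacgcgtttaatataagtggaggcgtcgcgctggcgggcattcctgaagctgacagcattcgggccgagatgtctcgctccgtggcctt
*TAP1* is read leftward and *PSMB9*, an immunoproteasome subunit, rightward. For the *TAP1* window shown, the starts are 488 bases apart and the windows meet with 13 shared bases. A match is a description of the letters in the window and not a bound site.

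Knockdown was seen in every lung library. In A549, *TRA2A* went from 69.5, 79.4 and 76.3 TPM in Control KD to 9.75 to 11.1 TPM in DKD, and in NCI-H23 *TRA2B* went from 80.3, 103 and 93.8 TPM to 21.9 to 24.1 TPM. Of the Cas9 groups, *TRA2A* in LN229 TRA2B-OE *TRA2A* KO (65.4 to 75.6 TPM) was not past the test against TRA2B-OE Control KO (74.8 to 84.3 TPM, adjusted p = 0.0793). Cas9 can disrupt a gene without lowering its RNA. A549 Control KD replicate 3 stood apart from the other libraries (median correlation with the other A549 libraries 0.837, against 0.872 to 0.927 for the rest), so results that rest on it are given with and without it. LN229 Luc Control KO replicate 1 did not stand apart by correlation (0.941) but held *S100B*, a glial marker, at 834 TPM against 276 and 255 in the other two. With or without it, 0 members were past the test in any comparison that used it. In control libraries of the lung lines the epithelial markers *KRT8* and *KRT18* were at 751 to 2911 TPM and 1118 to 2876 TPM. The other listed epithelial markers were lower there. In NCI-H23 *KRT19* was at 0 to 0.144 TPM, *EPCAM* at 1.02 to 1.51 and *CDH1* at 1.76 to 2.09. *CDH1* was at 19.5 to 25.2 TPM in A549 and at 117 to 131 in the glioma line LN319. LN319 also held *KRT8* at 115 to 128 TPM and *KRT19* at 7.65 to 9.17, against 5.37 to 6.58 for *KRT19* in A549. Of the mesenchymal and glial markers, the glioma controls held *SOX2* at 77.4 to 422 TPM, *VIM* at 2594 to 3412 and *CD44* at 536 to 2186, while *GFAP* was at 1.76 to 3.20 TPM and *S100B* was high in LN229 alone (under 0.5 TPM in LN319). Among the leukocyte and antigen-presenting cell markers *PTPRC* and *CD3E* were at or under 1.83 TPM in all controls, *CD68* was at 6.51 to 41.5 TPM, and LN229 held *HLA-DRA* and *CD74* at 1031 TPM or more.

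*B2M* was the most abundant member in control cells of all 4 cell lines, at 1582 ± 229.6 TPM in LN229, 1071 ± 118.6 in LN319, 283 ± 93.4 in A549 and 273 ± 35.8 in NCI-H23 (SD, n = 3), with the last pair overlapping. Below it the cell lines differed most in the classical heavy chains. *HLA-B* stood at 197 to 289 TPM in LN319, 62.4 to 83.9 in NCI-H23, 55.6 to 63.7 in LN229 and 0.482 to 3.50 in A549. The neighbors NCI-H23 and LN229 overlapped, and the step from LN229 down to A549 was 28.6-fold in the means. *HLA-C* kept the same order without overlap, from 243 to 324 TPM in LN319 down to 8.15 to 9.83 in A549. Alleles of these genes differ between lines, and the part of this in the levels was not tested.

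The non-classical chain *HLA-E* varied less, with 148 ± 8.24 TPM in LN319, 124 ± 2.20 in LN229, 50.9 ± 5.53 in NCI-H23 and 43.7 ± 1.64 in A549, in an order without overlap. It made up 77.9% of the summed TPM of the 4 heavy chain members in A549, 49.1% in LN229, 25.7% in NCI-H23 and 21.0% in LN319. *HLA-F* was at 22.9 and 19.8 TPM in LN229 and LN319, which overlapped, and at 3.30 and 1.48 TPM in NCI-H23 and A549. The peptide transporter was most abundant in NCI-H23, at 43.0 to 47.7 TPM for *TAP1* and 36.7 to 71.6 for *TAP2*. *TAP2* overlapped there with LN229, and LN229 with LN319. *TAPBP* was highest in LN319 (178 ± 20.0 TPM) and lowest in NCI-H23 (44.6 ± 3.62). The transactivator *NLRC5* had the opposite place in NCI-H23, at 0.815, 0.313 and 1.23 TPM, against 4.42 to 9.0 in A549, 11.8 to 14.8 in LN229 and 13.6 to 17.0 in LN319. NCI-H23 thus held the most *TAP1* and the least *NLRC5* of the 4 lines. The tables were quantified separately and no test was run across lines.

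**Figure D1:**
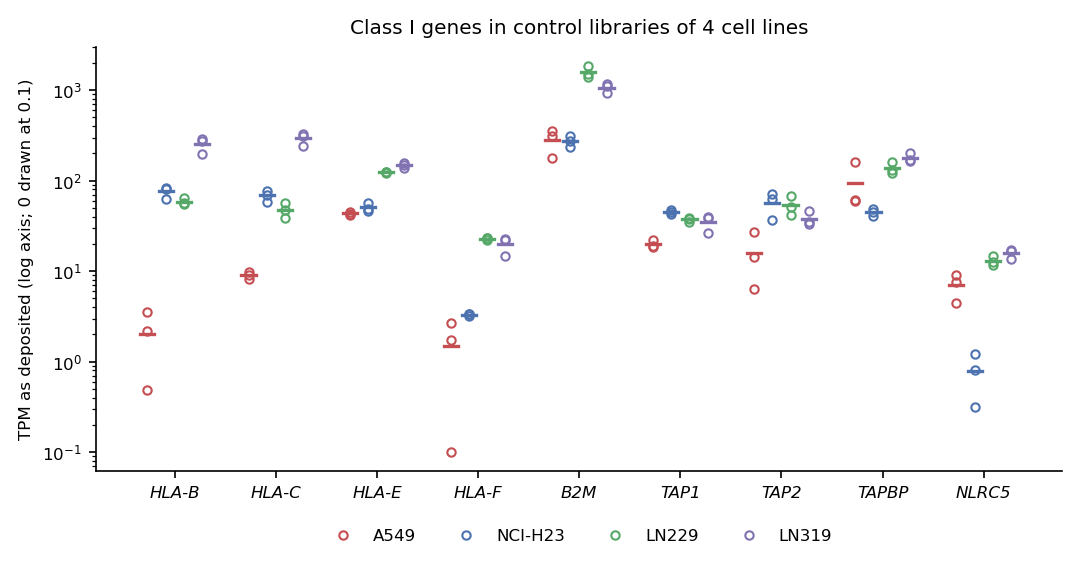
Abundance of the 9 class I genes in control libraries (TPM as deposited, log axis). Circles are the 3 libraries of a cell line and bars their mean, and the mean of A549 is lowest for *HLA-B*, *HLA-C*, *HLA-E*, *HLA-F*, *TAP1* and *TAP2*, that of NCI-H23 for *B2M*, *TAPBP* and *NLRC5*.

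Each perturbation was then compared with its own control. Fold changes come from limma on log2(TPM + 0.1) after scaling between libraries, with one fit per cell line, and "past the test" means a Benjamini-Hochberg adjusted p under 0.05 over all genes of the comparison. The scale with 0.1 added understates changes of low genes such as *HLA-F* in A549. TPM values quoted per library are as deposited, before scaling. With 3 libraries against 3 an exact permutation p cannot go under 0.1, so for single genes the overlap of the groups is stated. Member counts at an unadjusted p under 0.05 use a looser threshold than the shares of all genes past the test. Such counts and shares are therefore not comparable.

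Single knockdown in the lung lines put 0 of the 9 members past the test. In A549, 0.213% of all genes were past it after *TRA2A* KD and 0.335% after *TRA2B* KD, and 1 and 0 members had an unadjusted p under 0.05. That member was *NLRC5*, which was at 2.32 to 3.86 TPM after *TRA2A* KD against 4.42 to 9.0 in Control KD, without overlap (log2 fold change -1.0, SE 0.27, adjusted p = 0.237). In NCI-H23, 0.976% of all genes were past the test after *TRA2A* KD and 0.196% after *TRA2B* KD. At the looser threshold of an unadjusted p under 0.05 there were 3 and 1 members, and the share of all genes at that threshold is not given here. Closest was *TAP1* after *TRA2A* KD, at 33.5, 31.3 and 36.7 TPM against 45.0, 47.7 and 43.0 (log2 fold change -0.41, SE 0.08, adjusted p = 0.0533). All 3 knockdown libraries were below all controls, and *TAP1* passed the test under 3 alternative settings, with a pseudocount of 1, a minimum of 5 TPM or TPM as deposited. *HLA-C* lay on opposite sides of control in the single knockdowns, at 47.3 to 57.0 TPM after *TRA2A* KD (-0.33, adjusted p = 0.103) and 84.1 to 86.8 TPM after *TRA2B* KD (0.21, adjusted p = 0.426), against 58.3 to 77.6 in control. Neither group overlapped with control and neither was past the test.

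After loss of both paralogs *HLA-E* was the 1 member past the test and higher in both lung lines, where 14.6% of all genes rose in A549 and 20.0% in NCI-H23. The counts of members past the test, 3 of 9 in A549 and 5 of 9 in NCI-H23, lie near the shares of all genes past it, 30.5% and 43.2%. In A549 *TRA2A/B* DKD, *HLA-E* was at 66.8, 69.6 and 65.8 TPM against 42.3, 45.5 and 43.2 in Control KD. Both single knockdowns lay at 37.1 to 43.7 TPM. The groups did not overlap, and the fold change was 1.47 (log2 0.56, SE 0.11, adjusted p = 0.00271). In NCI-H23 *TRA2A/B* DKD it was at 91.6, 86.8 and 93.8 TPM against 46.5, 57.2 and 49.1, again with both single knockdowns near control at 52.2 to 57.3 TPM. Here it rose 1.6-fold (log2 0.68, SE 0.07, adjusted p = 1.51e-05). In both lines *HLA-E* kept this call in every alternative except a minimum log2 fold change of 1, which it does not reach. Its share of heavy chain TPM in NCI-H23 went from 24.0 to 27.3% in Control KD to 39.6 to 42.7% in DKD.

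**Figure D2:**
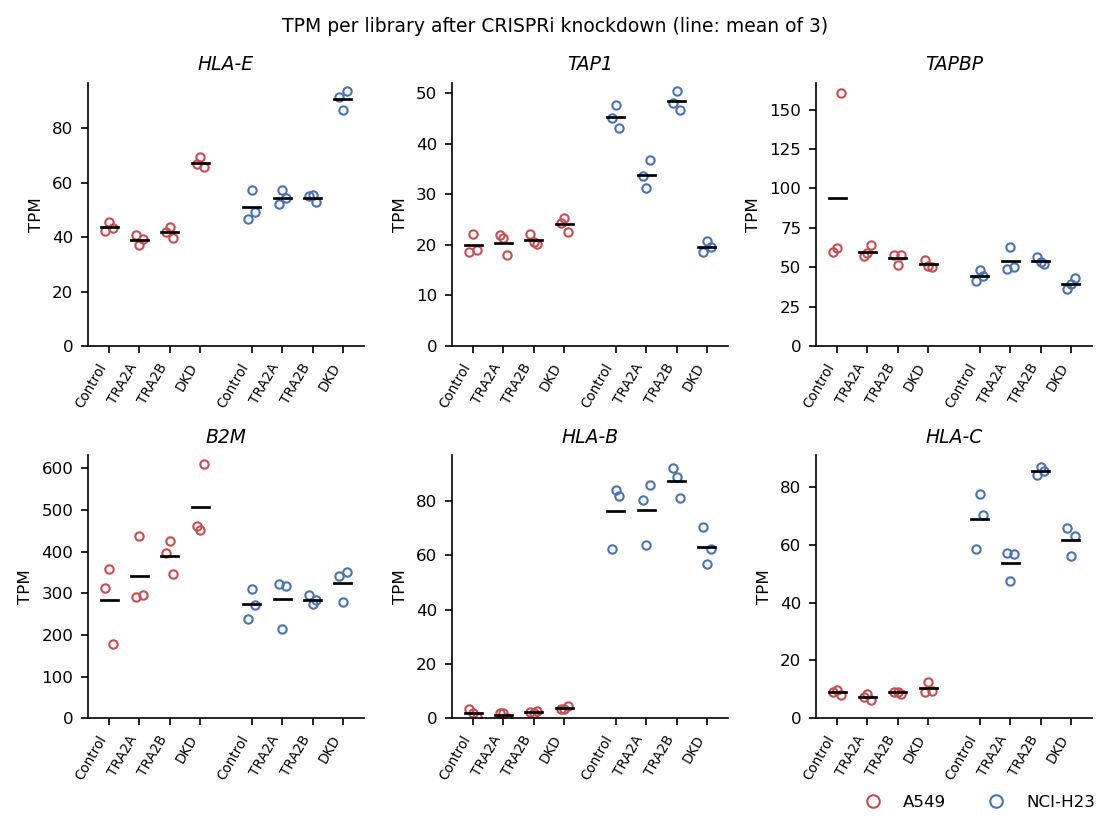
TPM as deposited of 6 class I genes in each library of A549 and NCI-H23 (circles, with the mean of 3 as a line), in Control KD, *TRA2A* KD, *TRA2B* KD and DKD from left to right. *HLA-E* is highest in the DKD libraries of both lines, and *TAP1* is at 18.6 to 20.7 TPM in those of NCI-H23, below every other library of that line.

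In A549 *TRA2A/B* DKD, 3 of 9 members were past the test, 2 up and 1 down, where 30.5% of all genes were past it (14.6% up, 15.9% down). The median log2 fold change of the members was 0.56, and that of all genes 0.04. Without Control KD replicate 3 the member median was 0.28 and that of all genes -0.0039. *B2M* was at 461, 452 and 609 TPM against 312, 359 and 179 in Control KD, without overlap (log2 fold change 0.82, SE 0.28, adjusted p = 0.0473). *TAPBP* was at 54.5, 51.0 and 50.1 TPM against 59.4, 61.9 and 161 (log2 fold change -0.76, SE 0.24, adjusted p = 0.0362). The lowest *B2M* and the highest *TAPBP* among the controls both belong to replicate 3, the library that stood apart.

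Without that library *B2M* was no longer past the test (log2 fold change 0.43, adjusted p = 0.0604), *TAPBP* was, with a smaller change (-0.39, adjusted p = 0.00584), and so was *HLA-E* (0.46, adjusted p = 0.00251). *TAP2* was then past it too (log2 fold change 1.47, adjusted p = 0.00737), having been at 28.9, 29.9 and 30.6 TPM in DKD against 6.37, 14.3 and 26.9 in Control KD and just short of the test with all libraries (1.07, SE 0.39, adjusted p = 0.0591). No DKD library of *TAP2* overlapped with control. *B2M* and *TAPBP* were both lost, and *HLA-E* kept, when any 1 of the 3 DKD libraries was left out. The other members were not past the test. *HLA-B* (0.482 to 4.64 TPM across both groups) and *HLA-F* (0 to 3.27 TPM) were low and variable, and *TAP1*, at 22.6 to 25.3 TPM against 18.6 to 22.2, overlapped after scaling (adjusted p = 0.268).

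In NCI-H23 the same double knockdown was compared with its own control, and the difference between the 2 lines was not tested. Of 9 members, 1 rose and 4 fell, where 43.2% of all genes were past the test (20.0% up, 23.2% down). The member median was -0.33 on the log2 scale and that of all genes 0.02. *TAP1* had the largest change, at 18.6, 20.7 and 19.6 TPM against 45.0, 47.7 and 43.0 in Control KD (0.39-fold, log2 -1.36, SE 0.08, adjusted p = 6.75e-07). The groups were far apart, *TRA2B* KD alone stayed at 46.7 to 50.4 TPM, and *TAP1* passed under every alternative tried. Its partner *TAP2* was at 38.2 to 56.1 TPM against 36.7 to 71.6, with overlap (adjusted p = 0.105).

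Smaller decreases were seen in NCI-H23 DKD. *HLA-B* was at 70.5, 56.7 and 62.3 TPM against 62.4, 83.9 and 81.9 (log2 fold change -0.42, SE 0.12, adjusted p = 0.0134). *HLA-C* was at 65.7, 56.2 and 62.9 TPM against 58.3, 77.6 and 70.2 (-0.31, SE 0.08, adjusted p = 0.0127). *TAPBP* was at 36.2, 39.3 and 42.9 TPM against 41.1, 48.3 and 44.6 (-0.33, SE 0.10, adjusted p = 0.0201). In TPM as deposited the groups of all 3 overlapped, and after scaling they did not. Without scaling, where the median of all genes was 0.17, none of the 3 was past the test, and with quantile normalization, where it was -0.01, none was either. *HLA-F*, *B2M* and *NLRC5* overlapped with control and were not past the test (adjusted p from 0.515 to 0.833).

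**Figure D3:**
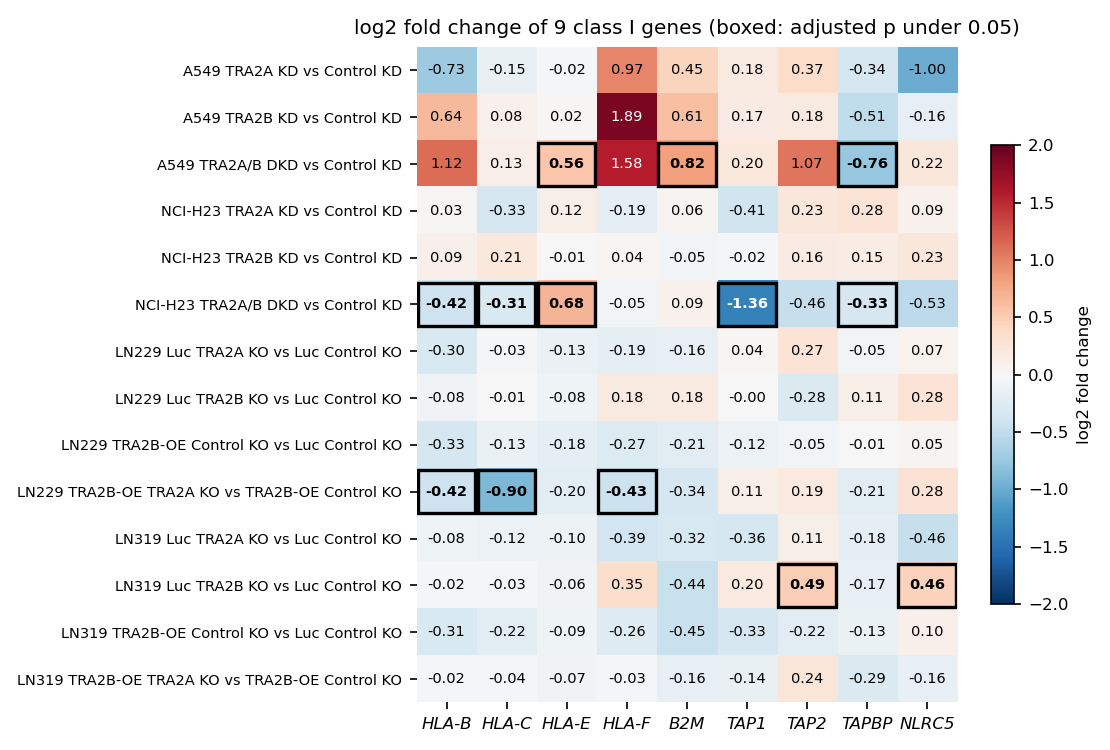
log2 fold change of the 9 class I genes in the 14 comparisons of a perturbation with its own control, on a color scale from -2 to 2. Boxed values have an adjusted p under 0.05, and the boxes lie in 4 of the 14 rows, both DKD comparisons, LN229 TRA2B-OE *TRA2A* KO and LN319 Luc *TRA2B* KO.

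Whether the double knockdown departs from the sum of the single ones was tested within each line as the difference of the log2 changes. In A549, 2 of 9 members departed, where 14.7% of all genes did. The difference was 0.55 for *HLA-E* (SE 0.15, adjusted p = 0.0348) and 1.38 for *NLRC5* (SE 0.39, adjusted p = 0.0371). *NLRC5* was near control in DKD, at 7.34 to 8.89 TPM, and lower in *TRA2A* KD, so its difference comes with the single knockdown. Both calls were lost when any 1 of the 3 DKD libraries was left out. The targets were not equally depleted, with *TRA2A* at 9.56% of control in *TRA2A* KD and 13.9% in DKD. *TRA2B* was at 9.68% in *TRA2B* KD and 16.3% in DKD, and the part of this was not tested.

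In NCI-H23, 4 of 9 members departed, where 21.0% of all genes did. The difference was 0.58 for *HLA-E* (SE 0.09, adjusted p = 0.00163), -0.93 for *TAP1* (SE 0.12, adjusted p = 0.000415), -0.77 for *TAPBP* (SE 0.14, adjusted p = 0.00365) and -0.54 for *HLA-B* (SE 0.16, adjusted p = 0.0392), whose call was lost without, for example, DKD replicate 2 or 3. *HLA-E* and *TAP1* thus changed more in the double knockdown than both single changes added. The targets were less depleted in DKD, with *TRA2A* at 6.54% of control in *TRA2A* KD and 20.5% in DKD. *TRA2B* was at 10.6% in *TRA2B* KD and 25.2% in DKD. By limma, *TRA2B* rose in *TRA2A* KD (log2 fold change 0.58, adjusted p = 0.0237) and *TRA2A* in *TRA2B* KD (0.46, adjusted p = 0.0259). The part of these levels in the differences was not tested. *TAPBP* was at 49.0 to 62.6 TPM in *TRA2A* KD and 51.8 to 56.2 in *TRA2B* KD, above the DKD libraries and, without overlap, above control. Neither single change of *TAPBP* was past the test.

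Other genes of the pathway were counted from fixed lists in the same fits. The proteasome list holds immunoproteasome subunits, their activator and the constitutive subunits they replace. In NCI-H23 DKD, 7 of its 8 genes fell and none rose, where 23.2% of all genes fell and 20.0% rose. The median log2 fold change of the list was -0.49. The immunoproteasome subunit *PSMB9*, the divergent neighbor of *TAP1*, was at 17.9, 17.9 and 19.8 TPM against 35.3, 43.5 and 43.0 (log2 fold change -1.28, SE 0.08, adjusted p = 6.36e-07). *PSME1*, of the proteasome activator, was at 17.8, 16.6 and 19.6 TPM against 31.7, 45.5 and 42.9 (-1.29, SE 0.11, adjusted p = 7.59e-06). Neither gene overlapped with control. In Gencode v44 the span of *PSMB9* (32844136 to 32859851) covers that of *TAP1*. *PSMB9* shares exonic bases with *PSMB8* and PSMB8-AS1, so its level may include such reads. *PSMB10* (-0.73) and *PSMB8* (-0.55) fell as well. In A549 DKD, where 30.5% of all genes were past the test, 1 of these 8 genes was, *PSMB8*, which rose (0.88, SE 0.22, adjusted p = 0.0113).

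Among 8 genes of peptide trimming and loading, NCI-H23 DKD had 2 up and 1 down and A549 DKD 2 down, against 43.2% and 30.5% of all genes past the test. The chaperone *HSPA5* rose (log2 fold change 0.55), as did the translocon subunit *SEC61A1* (0.32), and calreticulin (*CALR*), which holds the heavy chain in the loading complex, fell (-0.27). In A549 DKD *CALR* (-0.75, adjusted p = 2.06e-05) and calnexin (*CANX*, -0.43, adjusted p = 0.0118) fell. *CALR* was thus past the test and lower in both double knockdowns. Of the class I-like genes, 2 of 7 tested passed in NCI-H23 DKD, the stress ligand *MICA* (0.69) and *HFE* (-0.62), and 0 of 6 passed in A549.

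**Figure D4:**
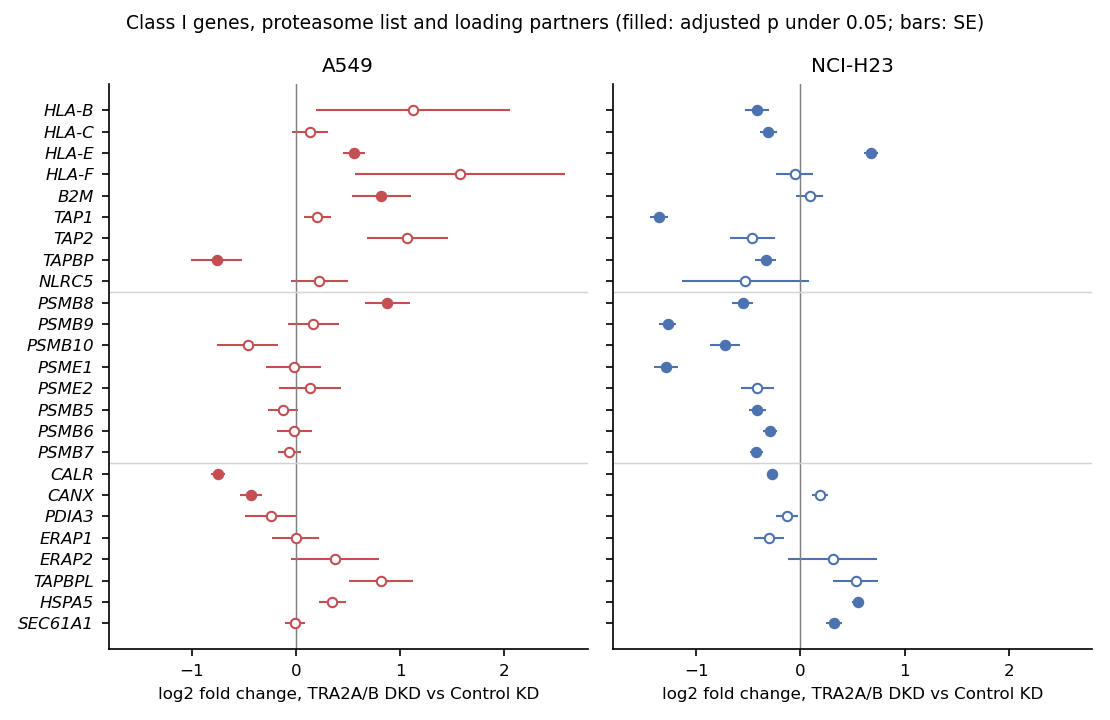
log2 fold change (*TRA2A/B* DKD against Control KD) of the class I genes, the proteasome list and the loading partners, top to bottom, in A549 and NCI-H23. Bars are SE, filled points have an adjusted p under 0.05, and in NCI-H23 7 of the 8 proteasome genes are filled and left of 0.

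Of the interferon and NF-kB input genes 8 of 15 were past the test in A549, where 30.5% of all genes were, and 6 of 16 in NCI-H23, where 43.2% were. Genes of interferon and NF-kB signaling past the test included *SOCS3* (log2 fold change 1.62), *NFKB1* (0.88) and *IFNAR2* (-0.79) in A549, where 4 rose and 4 fell of 15, and *STAT2* (0.96), *IFNAR2* (-0.58) and *IFNGR2* (-0.51) in NCI-H23, where 3 rose and 3 fell of 16. Among the promoter-binding partners of NLRC5, *CREB1* rose in both lines (0.82 in A549 and 1.09 in NCI-H23). *RFXAP*, an RFX subunit, fell in NCI-H23 (-1.15), where *NFYA* rose (0.44) and *NFYB* fell (-0.49).

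Of the interferon-stimulated genes, 1 rose and 1 fell of 18 tested in A549 DKD (*IFI6* 1.13, *OAS3* -1.34), and 0 rose and 5 fell of 11 in NCI-H23 DKD, among them *ISG15* (-2.58), *IFITM3* (-1.14), *DTX3L* (-1.08) and *OAS3* (-1.03). The class II list had few genes above the minimum, 2 in A549 and 3 in NCI-H23, and *HLA-DMB*, a class II peptide loader, fell in both (-2.09 and -1.23). Of 5 listed regulators of class I protein turnover, 3 rose in NCI-H23 DKD, *SUSD6* (0.65), *SYVN1* (0.51) and *TMEM127* (0.25), and 0 were past the test in A549. These lists are to be read against 30.5% of all genes past the test in A549 and 43.2% in NCI-H23. Summed epithelial markers were lower in both DKD groups without overlap, at 4116 to 4331 TPM against 5400.3 to 5822 in A549 and 1371 to 1606 against 1906 to 1971 in NCI-H23. Summed mesenchymal and glial markers were lower too, at 1147 to 1252 TPM against 1339 to 1531 in A549 and 1181 to 1319 against 1676 to 1712 in NCI-H23, and the part of these shifts in the class I results was not tested. The summed leukocyte and antigen-presenting cell markers were at 38.3 to 41.9 TPM in A549 DKD against 29.0 to 44.4 in control, and at 10.4 to 13.5 against 9.72 to 13.4 in NCI-H23.

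The glioma lines were compared next. In LN229 with luciferase, 0 of 9 members were past the test after *TRA2A* KO (3.68% of all genes were, and 1 member had an unadjusted p under 0.05) or after *TRA2B* KO (0.568% and 0 members). That member was *HLA-B*, at 51.6, 51.5 and 39.0 TPM against 63.7, 56.5 and 55.6, without overlap (log2 fold change -0.30, SE 0.10, adjusted p = 0.108). Overexpression of *TRA2B* by itself put 0 members past it (1.03% of all genes, and 3 members at an unadjusted p under 0.05). These were *HLA-B*, *HLA-E* and *HLA-F*, each lower than in Luc Control KO without overlap, with log2 fold changes of -0.33, -0.18 and -0.27 and adjusted p from 0.140 to 0.314.

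With *TRA2B* overexpressed, *TRA2A* KO lowered heavy chain genes in LN229. Of 9 members, 0 rose and 3 fell, where 6.07% of all genes were past the test (3.64% down). *HLA-C* was at 20.4, 26.4 and 25.3 TPM against 37.7, 47.8 and 47.2 in TRA2B-OE Control KO (0.54-fold, log2 -0.90, SE 0.19, adjusted p = 0.0173). *HLA-B* was at 36.3, 35.4 and 37.1 TPM against 49.9, 49.1 and 44.5 (-0.42, SE 0.10, adjusted p = 0.0300). *HLA-F* was at 15.3, 14.0 and 14.8 TPM against 20.9, 19.5 and 18.2 (-0.43, SE 0.09, adjusted p = 0.0163). None of the 3 overlapped with its control. Leaving out single libraries kept 1 to 3 of these calls. Only 1 was kept without TRA2B-OE Control KO replicate 1 or 2, and without TRA2B-OE *TRA2A* KO replicate 1 or 2. The call of *HLA-B* was lost in each of these cases and without TRA2B-OE *TRA2A* KO replicate 3. A fit of only the 2 groups kept 0. *B2M* was lower in all 3 libraries too, at 1044 to 1187 TPM against 1273 to 1639, without being past the test (-0.34, adjusted p = 0.108), and *HLA-E* overlapped (-0.20, adjusted p = 0.133).

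*NLRC5* lay the other way in the same libraries, at 17.0, 18.6 and 16.2 TPM against 12.6, 15.7 and 13.6, and was not past the test (0.28, adjusted p = 0.217). *TAP1*, *TAP2* and *TAPBP* were not past it either (adjusted p from 0.264 to 0.677). Whether the response to *TRA2A* KO differed between TRA2B-OE and Luc cells was tested as an interaction, which put 0 members and 0% of all genes past the test. For *HLA-C*, the 1 member with an unadjusted p under 0.05, the interaction was -0.86 (SE 0.26, adjusted p = 0.714), and Luc *TRA2A* KO libraries were at 51.6, 51.4 and 34.9 TPM against 38.3 to 57.2 in their control.

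LN229 also expressed class II genes at high levels, with *CD74*, the class II invariant chain, at 3273 to 4050 TPM and *HLA-DRA* at 1031 to 1341 TPM in Luc Control KO. In TRA2B-OE *TRA2A* KO, 8 of the 9 class II genes fell, where 3.64% of all genes fell. *CD74* was at 1748, 1779 and 1743 TPM against 3154, 3069 and 2953 (log2 fold change -0.82, SE 0.11, adjusted p = 0.00204), and *HLA-DPB1* (-0.97), *HLA-DRA* (-0.78) and *HLA-DRB1* (-0.76) were past the test with it. After *TRA2A* KO with luciferase 4 of the 9 class II genes fell as well, where 3.68% of all genes were past the test and 0 class I members were. The log2 fold changes of these 4 genes were from -0.44 to -0.52, with adjusted p from 0.0260 to 0.0497. Luc Control KO replicate 1 held the most *HLA-DRA* (1341 TPM against 1051 and 1031) and *CD74* (4050 against 3273 and 3405) of its group. Class II genes were not tested without it. The leukocyte and antigen-presenting cell sum, which includes *HLA-DRA* and *CD74*, was at 2701 to 3778 TPM against 4347 to 5408.5. No class II gene was past the test of the interaction, where the lowest adjusted p was 0.842 (*HLA-DPB1*). From the other lists *PDIA3*, a thiol reductase of the loading complex, fell (-0.56), as did the peptide trimming enzyme *ERAP1* (-0.36) and the class I-like Fc receptor *FCGRT* (-0.52), while 0 of 25 interferon-stimulated genes and 0 of 8 proteasome genes were past the test. The summed leukocyte and antigen-presenting cell markers went from 3787 to 4208 TPM down to 2243 to 2361 TPM, and their part in the class I result was not tested. *HLA-DRA* and *CD74* are themselves in this sum, so it is not a measure separate from the class II genes.

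**Figure D5:**
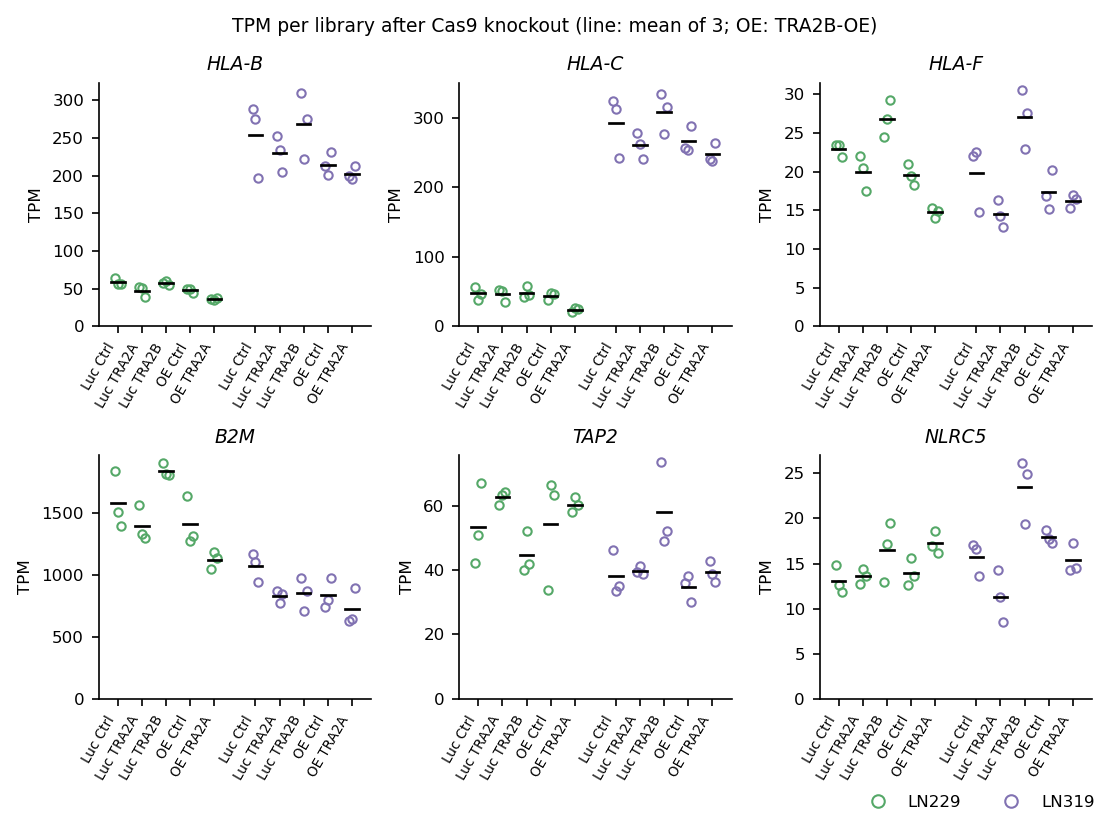
TPM as deposited of 6 class I genes in each library of LN229 and LN319 (circles, with the mean of 3 as a line), with luciferase (Luc) or *TRA2B* overexpression (OE) and control, *TRA2A* or *TRA2B* guides. *HLA-B*, *HLA-C* and *HLA-F* are lowest, within LN229, in the OE *TRA2A* libraries, and *NLRC5* is highest in LN319 Luc *TRA2B*.

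In LN319 with luciferase, *TRA2B* KO put 2 of 9 members past the test, both up, where 42.7% of all genes were past it (18.5% up). *NLRC5* was at 26.1, 19.4 and 24.9 TPM against 17.0, 16.6 and 13.6 in Luc Control KO, without overlap (log2 fold change 0.46, SE 0.15, adjusted p = 0.0274). *TAP2* was at 73.4, 49.0 and 52.0 TPM against 46.1, 33.3 and 35.0 (0.49, SE 0.15, adjusted p = 0.0219), without overlap as deposited and with overlap after scaling. Neither was past the test without Luc Control KO replicate 3 or without Luc *TRA2B* KO replicate 1. *B2M* was at 978, 712 and 872 TPM against 1168, 1107 and 939 (-0.44, SE 0.17, adjusted p = 0.0561). The heavy chain genes overlapped with control, *HLA-B* at 222 to 309 TPM against 197 to 289. In the same libraries mitochondrial genes took 18.3 to 20.6% of TPM against 12.1 to 12.8% in control, the mesenchymal and glial sum was at 4609.5 to 4843 TPM against 5685 to 5841, the epithelial sum at 284 to 299 against 344 to 357, and the leukocyte and antigen-presenting cell sum at 36.4 to 44.5 against 51.9 to 58.2. None of these overlapped with control, and their part in the result was not tested. The last sum includes *HLA-DRA* and *CD74*, so it is not separate from the class II genes given next.

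Around these 2 members, 7 of 8 class II genes tested fell after LN319 *TRA2B* KO, led by *HLA-DRA* (-1.07) and *HLA-DQB1* (-1.05). The class II genes were low in Luc Control KO, with means from 1.38 to 17.5 TPM. Of 8 proteasome genes 6 fell, led by the constitutive subunits *PSMB7* (-0.73), *PSMB5* (-0.71) and *PSMB6* (-0.65). Both counts are to be read against 42.7% of all genes past the test in either direction. Among interferon-stimulated genes 5 rose and 1 fell of 25, where 18.5% of all genes rose and 42.7% were past the test, with *XAF1* (1.71), *ISG15* (1.68) and *IFI44* (1.48) the largest. *CIITA*, the class II counterpart of NLRC5, fell (-0.63), as did *RFXAP* (-0.73). *SOCS1*, a feedback inhibitor of interferon signaling, rose (0.80), and *IFNAR1*, a chain of the type I interferon receptor, fell (-0.75). *CALR* (-0.52) and *CANX* (-0.33) fell and *ERAP1* rose (0.37).

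After LN319 *TRA2A* KO with luciferase, 0 of 9 members were past the test, where 14.3% of all genes were, and 3 members had an unadjusted p under 0.05, *HLA-F*, *TAP1* and *NLRC5*. *NLRC5* came closest, at 14.2, 11.3 and 8.46 TPM against 17.0, 16.6 and 13.6, with overlap (log2 fold change -0.46, SE 0.15, adjusted p = 0.0623). In the same comparison 17 of 25 interferon-stimulated genes fell and none rose, with a list median of -0.99 against -0.18 for the class I members and 0.02 for all genes. The difference between the 2 lists was not tested. Without Luc Control KO replicate 3, *HLA-F* and *TAP1* were past the test. Overexpression of *TRA2B* put 0 members past it (4.30% of all genes, 1 member at an unadjusted p under 0.05), and *TRA2A* KO on top of it 0 members (2.81%, 1 member). The first of these was *B2M*, at 740, 799 and 974 TPM against 1168, 1107 and 939 (-0.45, SE 0.17, adjusted p = 0.138), and the second *TAPBP*, at 132, 127 and 150 TPM against 174, 164 and 182 (-0.29, SE 0.09, adjusted p = 0.124). The interaction put 0 members past the test, with 0.0207% of all genes and 0 members at an unadjusted p under 0.05.

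The members did not move as 1 unit. Over the 18 group means, each set against the control of its line, the mean profile of the 9 members correlated most with *HLA-B* (r = 0.881), *HLA-F* (0.837) and *B2M* (0.782), and least with *HLA-E* (0.386), *NLRC5* (0.214) and *TAPBP* (-0.30). Members are part of the mean they are compared with, and *HLA-B* and *HLA-F* of A549, near the detection limit, weigh most on it. Outside the lists, the 5 genes of 13381 whose profiles were most like the mean were *RCAN1* (r = 0.895), *MTERF1* (0.890), *SYCE1L* (0.888), *MAPRE3* (0.887) and *SEPT7P2* (0.884). These are descriptions over 18 groups that share 4 controls. The 4 controls are among the 18 and are 0 for every gene by construction.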

How the data were processed

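The authors deposited 1 table per cell line of gene-level TPM values, unscaled between libraries, with 54 library columns in all. Per the paper's methods, directional poly-A libraries (paired reads of 150 bp) went through kallisto v0.48.0 against Gencode v34 (GRCh38), a release that the tables do not name, and the submitters' processing notes also list STAR 2.7.3. TPM keeps no depth, and only the replicate spread shows the precision.

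In R 4.3.3 with limma 3.58.1, a gene was tested where 4 or more libraries of the line reached 1 TPM (19303 genes for LN319, 18490 for LN229, 16405 for A549, 16293 for NCI-H23). Libraries were scaled by trimmed log ratios without weights (30% of ratios and 5% of levels trimmed), and log2(TPM + 0.1) was fitted over the whole line with moderated, level-dependent variances. Two-sided p-values were used, and the scripts were tested on simulated data. The 14 effect comparisons and 4 difference tests share controls within a line. The members and lists were chosen with earlier results of these data known. From each list at most 4 genes past the test were named, by size of change, where a member was past it, with the 5 genes most like the member mean; *PSMB9* also as neighbor of *TAP1*. Of the listed genes, 1 is not under its symbol in the tables. Some listed genes are not reported here. Alternatives are given in the closing section. Promoters came from RefSeq (GRCh38.p14), positions from Gencode v44, figures from matplotlib 3.10.9.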

Additional observations from a re-analysis of the deposited data

Results flagged for a closer look

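The results below are those in which 2 groups responded differently to the same change. In the lung lines both targets were less depleted in the double than in the single knockdowns, and the part of this was not tested. By the test of the difference, the effect of the double knockdown departed from the sum of the single ones in A549 for *HLA-E* (0.55, adjusted p = 0.0348) and *NLRC5* (1.38, adjusted p = 0.0371). In NCI-H23 it did so for *HLA-B* (-0.54, adjusted p = 0.0392), *HLA-E* (0.58, adjusted p = 0.00163), *TAP1* (-0.93, adjusted p = 0.000415) and *TAPBP* (-0.77, adjusted p = 0.00365), all log2 differences from limma.

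In 2 further cases every library of one cell line, after scaling, lay on the opposite side of its controls from the other line. They were picked from all 9 members over every comparison shared by both lung lines or both glioma lines. How many of all genes show this pattern was not counted, so the cases cannot be set against that share. After *TRA2B* KD, *TAPBP* was below all controls in A549 (log2 fold change -0.51) and above all controls in NCI-H23 (0.15). In A549, without Control KD replicate 3, this value was -0.13. After *TRA2A* KO with TRA2B-OE, *NLRC5* was above all controls in LN229 (0.28) and below them in LN319 (-0.16). These 2 differences between lines were not tested, and none of the 4 values was past the test in its own line.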

How the results depend on the processing

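Of the 19 calls of single members, *TAP1* in NCI-H23 DKD held under every alternative, and 0 changed sign. The number of members past the test moved as follows. Without the filter on low values it was 1 in A549 DKD, 0 in the A549 difference test and 0 in LN319 Luc *TRA2B* KO. With a minimum log2 fold change of 1 it was 0 in A549 DKD, 1 in NCI-H23 DKD, 1 in the A549 difference test and 0 in that of NCI-H23, 0 in LN229 TRA2B-OE *TRA2A* KO and 0 in LN319 Luc *TRA2B* KO. When the fit held no other groups it was 1 in A549 DKD and 0 in LN229 TRA2B-OE *TRA2A* KO. With TPM as deposited it was 2 in NCI-H23 DKD (*HLA-E* and *TAP1*), 1 in NCI-H23 *TRA2A* KD and 1 in LN319 TRA2B-OE *TRA2A* KO. With quantile normalization it was 2 in NCI-H23 DKD, 1 in the A549 difference test and 1 in LN319 TRA2B-OE *TRA2A* KO. A pseudocount of 1 and a minimum of 5 TPM each gave 1 in NCI-H23 *TRA2A* KD.

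Leaving out single libraries gave 1 to 3 members in A549 DKD, 0 to 2 in the A549 difference test, 3 to 6 in NCI-H23 DKD, 1 to 3 in LN229 TRA2B-OE *TRA2A* KO, 0 to 2 in LN319 Luc *TRA2A* KO, 0 to 2 in LN319 Luc *TRA2B* KO and 0 to 1 in LN319 TRA2B-OE *TRA2A* KO. In A549 DKD each DKD library left out gave 1 (*HLA-E*). In LN229 TRA2B-OE *TRA2A* KO, 1 member was past the test without TRA2B-OE Control KO replicate 1 (*HLA-C*) or 2 (*HLA-F*), or without *TRA2A* KO replicate 2 (*HLA-C*). Of the calls made there with all libraries, only that of *HLA-F* was kept without *TRA2A* KO replicate 1. NCI-H23 DKD had 3 without Control KD replicate 2.

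Deviations of same-numbered libraries correlated at -0.15 to 0.212, in no comparison with all 3 pairs above 0.1, so the numbers were not taken as pairs. Every library correlated best with its own number in 1 of the 14 comparisons (A549 *TRA2B* KD), and 5 of 6 did in LN229 TRA2B-OE *TRA2A* KO. With a replicate block the A549 difference test had 0 members, *HLA-B* was lost in that of NCI-H23 (adjusted p = 0.0653), and over all genes the calls went from 105 to 1297 in LN229 Luc *TRA2B* KO and from 1122 to 1890 in LN229 TRA2B-OE *TRA2A* KO. Removal of the trend with transcript length and GC content, chosen after seeing the data, ended the calls of *TAPBP* in both DKD comparisons (adjusted p = 0.0714 in A549 and 0.0917 in NCI-H23), and in the glioma lines the check was void, since fewer than 80% of genes had a length. The cause of these changes was not tested. The depth of each library cannot be read from TPM, and the paper gives only a minimum. *HLA-B* and *HLA-F* in A549 and *NLRC5* in NCI-H23 were low, and the part of depth in their spread was not tested.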

Other observations

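Class II genes stood out in LN319, in values chosen after they were seen. With *TRA2B* overexpressed, 8 of the 8 class II genes tested rose over Luc Control KO while 0 of 9 class I members were past the test. Of all genes, 4.30% were past it in either direction. *HLA-DRA* was at 39.3, 41.3 and 50.4 TPM against 10.3, 10.1 and 8.64 (log2 fold change 2.07, adjusted p = 1.53e-05), and *CD74* was at 56.5, 62.0 and 81.0 TPM against 19.2, 16.9 and 16.4 (1.82, adjusted p = 6.92e-05), in neither case with overlap. *CIITA* was at 17.0, 15.5 and 12.6 TPM against 6.55, 5.47 and 3.89, also without overlap. In the same libraries *NLRC5* was at 17.2 to 18.7 TPM against 13.6 to 17.0 and *HLA-B* at 201 to 231 TPM against 197 to 289. The summed leukocyte and antigen-presenting cell markers were at 121 to 153 TPM against 51.9 to 58.2 TPM. *HLA-DRA* and *CD74* are themselves in this sum, so it is not a measure separate from the class II result. The part of the other markers in it was not tested. The difference between the class II and class I lists was not tested.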
